A study of Arabidopsis thaliana with 6 samples.

Results

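The brightest named transcripts of wild-type Arabidopsis thaliana were taken as the 200 genes with the highest mean log2 intensity over the 3 wild-type (WT) arrays, out of 16542 named genes on the array. Each gene was represented by the brightest of its probe sets that named it alone, and 8 of the 200 had more than 1 such probe set. The 2 groups were 3 arrays of ara6-1, a knock-out of ARA6, and 3 arrays of WT, both of the Columbia accession. ARA6 encodes a plant-specific RAB5-type GTPase of endosomal membrane traffic. RNA came from whole plants aged 14 days, grown on MS plates under continuous light at 23 °C after 1 day at 4 °C. The labels call the 3 arrays of each genotype biological replicates and do not say how the plants were kept apart, so p-values measure the spread between these samples.

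The word abundant needs a limit here. Probe sets differ in how strongly their probes bind, so a brighter probe set does not by itself show more RNA than a dimmer one, and the order below is an order of brightness. The WT values chose the members, so their WT levels and every count or median over them are given as a description, with no test. The list is also not all of the bright signal. As many as 543 of the 28501 probe sets (1.91%) were at least as bright in WT as the last member. Besides the 200 members, these were 12 further probe sets of named genes, 45 that name several genes and 286 that have no gene name here.

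As background, a plant cell carries 3 genomes. The plastid genome encodes core subunits of the photosystems, the cytochrome b6f complex, the ATP synthase, the NADH dehydrogenase-like (NDH) complex, the large subunit of Rubisco, and part of the plastid's own RNA polymerase and ribosome. The mitochondrial genome encodes subunits of the respiratory chain and proteins that mature cytochrome c. The nucleus encodes the remaining subunits, which are imported into the organelles after synthesis in the cytosol, and Arabidopsis chromosome 2 also carries a large inserted copy of mitochondrial DNA.

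The ARA6 transcript itself, which is not a member (rank 1089), was at 6.98, 7.15 and 6.89 log2 intensity in ara6-1 and at 7.99, 8.40 and 8.34 in WT. The 3 ara6-1 values lay below the 3 WT values, with a difference of -1.24 (SE 0.14) and a limma adjusted p of 0.1398. Array medians ran between 28.8 and 29.2 on the linear scale. For whole plants, 3 of 9 listed genes of green tissue and 2 of 9 of root had a tested probe set naming them alone. All 5 stood above the array median on all 6 arrays. None of the 5 listed flower and seed genes had such a probe set, so their presence was not checked. Replicate 1 of ara6-1 and replicate 3 of WT stood apart from the other arrays. Over the members, the SDs of their deviations from their own group means were 0.164 and 0.119 on the log2 scale, against 0.064 to 0.093 for the other 4 arrays.

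Organelle genes led the ranking. The 62 plastid members were all but 1 of the 63 named plastid genes, and psbT, at rank 342, was the one outside. These 63 are not all plastid genes: atpB, psbC and psbD, for example, were not among them, so their place is not known. A further 14 members were mitochondrial by name, of 18 such genes, and matR, orfX, ccb206 and ccb382 were the other four. Another 7 members were chromosome 2 loci within the inserted mitochondrial DNA, taken here as the loci lying between the outermost ones that the probe table pairs with a mitochondrial gene. The remaining 117 were nuclear, of which 39 had a symbol or a description in the annotation used here. The other 78 carried only a locus number there. Their functions were therefore not read, and the function classes below leave them out. Among the named genes, the first 28 ranks held only organelle genes, 26 plastid and 2 mitochondrial. Probe sets without a name or naming several genes have no rank. The brightest tested probe set had a WT mean of 13.81, above atpH at 13.55. Several nuclear photosynthesis genes, such as RBCS1A, LHCB1.1 and PSBO1, had no tested probe set naming them alone, so their place is not known. Of the first 50 ranks 40 were plastid, and of the first 100 ranks 56.

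**Figure D1:**
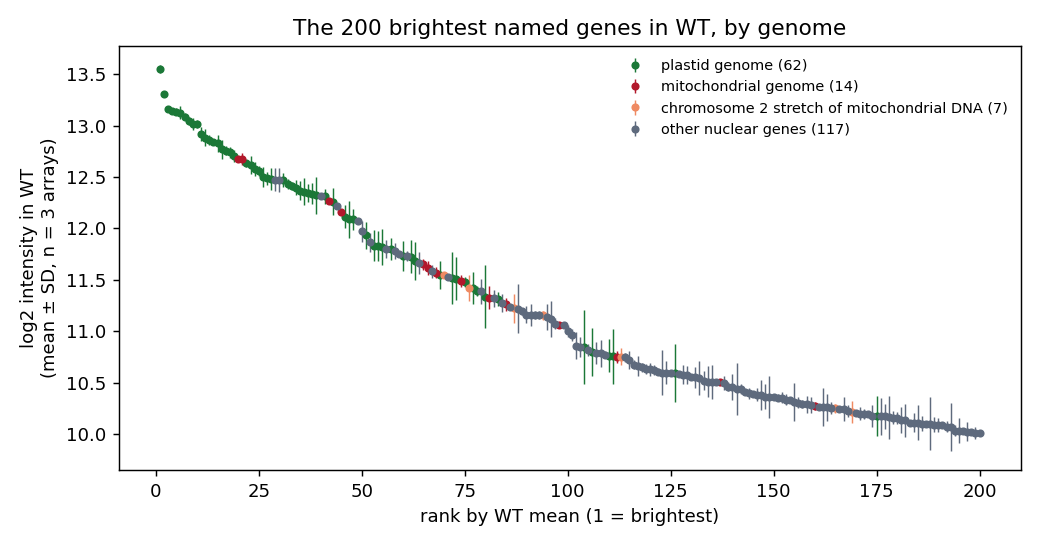
The WT mean log2 intensity of each member (vertical axis, mean ± SD over 3 arrays) is plotted against its rank (horizontal axis), coloured by the genome that encodes it. Plastid genes fill nearly all of the first 28 ranks, and nuclear genes make up most of the ranks from 101 on.

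The brightest member was atpH, the ring subunit of the plastid ATP synthase. It measured 13.50, 13.50 and 13.51 log2 intensity in ara6-1 and 13.59, 13.54 and 13.51 in WT. Next came psaB, a reaction centre protein of photosystem I, at 13.29, 13.24 and 13.34 in ara6-1 and 13.33, 13.30 and 13.28 in WT. The gene psbA, which encodes the D1 protein of photosystem II, stood at 13.16, 13.05 and 13.09 in ara6-1 and 13.17, 13.16 and 13.16 in WT. The large subunit of Rubisco, rbcL, measured 13.15, 13.08 and 13.11 in ara6-1 and 13.14, 13.15 and 13.14 in WT. The groups of psaB and rbcL overlapped, while those of atpH and psbA nearly touched, with ara6-1 lower. Their highest ara6-1 values, 13.5093 and 13.1596, lay just below the lowest WT values, 13.5096 and 13.1612. Ranks 5 to 20 were psbE, psbB, petG, psaA, petB, psbF, rpl14, rpl20, atpF, psbK, psaI, psbH, petN, matK, ndhC and rpl2. All are plastid genes except rpl2, whose name occurs in both organelle genomes. It was placed in the mitochondrion because the platform annotation gives both plastid copies probe sets of their own. Neither plastid copy was among the tested named plastid genes. Whether the rpl2 probes also read the plastid copies was not tested.

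At the other end of the choice, the last 3 members were AT5G24490, AT1G36980 and AT1G44000, with WT means of 10.015, 10.009 and 10.008 log2 intensity. The first 3 genes outside were AT4G16190 at 10.002, AT2G35750 at 9.996 and AT3G60910 at 9.978. The edge of the list therefore divides genes whose WT means differ by less than their spread between arrays.

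Most members had nearly the same level in both genotypes. The median difference, ara6-1 minus WT, was -0.01 on the log2 scale over the members and -0.00 over all tested probe sets, with 82 members higher and 118 lower. From the 5th to the 95th percentile the differences of the members ran from -0.24 to 0.14. In limma with Benjamini-Hochberg adjustment over all 28501 probe sets, 0 of 200 members passed the threshold of 0.05, where 0.0105% of all probe sets did. The lowest adjusted p of a member was 0.4471, for AT7SL-1. At an unadjusted p under 0.05 there were 11 members, or 5.5%, where 9.01% of all probe sets were. Of these 2 were higher in ara6-1 and 9 lower, where 3.63% of all probe sets were higher and 5.39% lower. A p that misses the threshold does not show stability, so the interval of each difference was read as well. The 95% interval lay wholly within a 1.5-fold change in either direction for 187 of 200 members, or 93.5%, where 72.8% of all tested probe sets met this. That share rose with brightness over the whole array: it was 58.5% for probe sets with a mean log2 intensity up to 3.5 and 95.02% for those above 10. The members' share was thus near that of all probe sets above 10, a group that includes most of the members themselves.

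**Figure D2:**
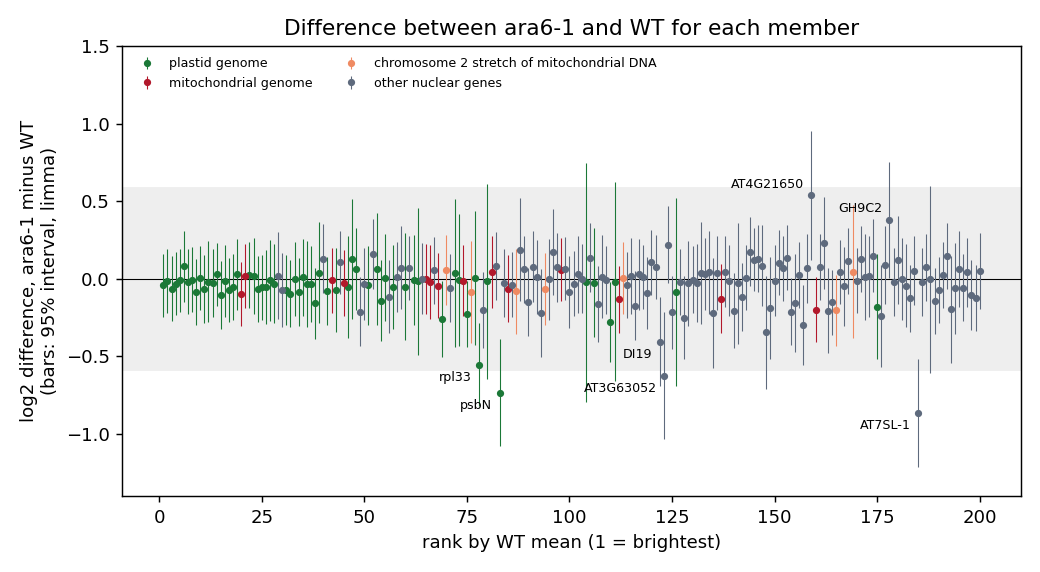
The log2 difference of each member, ara6-1 minus WT, is plotted with its 95% interval from limma against its WT rank, and the grey band marks a 1.5-fold change either way. For 187 of 200 members the whole interval lies inside the band, and the 7 labelled genes are among the 13 that reach outside it.

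The ranking did not use the ara6-1 arrays, which were also read on their own; they entered the choice only through the decimal filter and, for the 8 genes with more than 1 probe set, the mean over 6 arrays that picked one. The median SD over the 3 ara6-1 arrays was 0.08 on the log2 scale for members, 0.07 for all probe sets with a mean above 10 and 0.14 over all tested probe sets. Ranked by the 3 ara6-1 arrays, 190 of the members were again among the 200 brightest named genes, 98 of the first 100 and 19 of the first 20. The median member moved by 4 ranks and 27 moved by more than 20. The 10 members that left the ara6-1 top 200 were AT3G63052, AT1G24851, AT3G14600, AT7SL-1, PSB27, AT3G56680, AT2G46220, AT5G65660, AT5G24490 and AT1G36980. Apart from AT3G63052 and AT7SL-1, these had WT ranks of 176 or more and differences between -0.24 and -0.06. The 10 that entered included COR15A, a cold-regulated chloroplast protein, at 10.02 in ara6-1 and 9.78 in WT. MPPBETA, a subunit of the mitochondrial processing peptidase, also entered, at 10.09 in ara6-1 and 9.89 in WT.

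The choice favours genes whose WT values happen to be high, so it was repeated with 1 WT array held back. When the 200 genes were chosen on 2 WT arrays, at least 197 were members. Relative to the 2 arrays that chose, the ara6-1 arrays then stood at medians between -0.05 and 0.01, and the WT array left out of the choice at 0.01, 0.02 and -0.04. Between 1 and 6 genes lay past 1.5-fold on an ara6-1 array, and 0 or 1 on the WT array left out.

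The narrowest intervals belonged to atp1, rbcL, AT1G07080, AT4G19110, atpH and psbF. For atp1, the alpha subunit of the mitochondrial ATP synthase, the values were 11.14, 11.12 and 11.11 in ara6-1 and 11.04, 11.06 and 11.09 in WT. Its difference of 0.06 had a 95% interval from -0.15 to 0.26. For psbF, a subunit of cytochrome b559 in photosystem II, the values were 13.01, 13.03 and 13.03 in ara6-1 and 13.04, 13.04 and 12.97 in WT, a difference of 0.01 (95% interval -0.20 to 0.21).

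Among the plastid members, 56 of 62 had intervals within 1.5-fold. The median difference was -0.03, with 14 higher and 48 lower. The groups of 10 were separated with ara6-1 lower and of 0 with ara6-1 higher, where over all probe sets 7.85% were separated lower and 7.81% higher. The split into higher and lower moved with single arrays. Without ara6-1 replicate 1, 35 of the 62 plastid members were higher and the median was 0.02. Without WT replicate 3, 57 were lower and the median was -0.10. Without both, 39 were lower and the median was -0.03.

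The 7 photosystem I members (psaA, psaB, psaC, psaI, psaJ and the assembly factors ycf3 and ycf4) all had intervals within 1.5-fold, with differences from -0.16 for psaJ to 0.02. One of them, the small subunit psaI, had groups that were just separated, at 12.72, 12.73 and 12.73 in ara6-1 and 12.88, 12.87 and 12.73 in WT. Of the 12 photosystem II members 11 were within 1.5-fold. The core antenna gene psbB measured 13.10, 13.28 and 13.23 in ara6-1 and 13.18, 13.13 and 13.06 in WT, and psbE, the partner of psbF in cytochrome b559, 13.11, 13.15 and 13.11 in ara6-1 and 13.15, 13.16 and 13.09 in WT. Both overlapped between the genotypes. The 6 members of the cytochrome b6f complex, which links the photosystems, had differences from -0.08 to -0.02 and were all within 1.5-fold. Its small subunit petG stood at 13.05, 13.04 and 13.13 in ara6-1 and 13.12, 13.10 and 13.05 in WT. Cytochrome b6 itself, petB, had just separated groups at 12.95, 12.90 and 12.95 in ara6-1 and 13.03, 13.06 and 12.95 in WT, and so did petN, at 12.71, 12.68 and 12.66 in ara6-1 and 12.81, 12.75 and 12.72 in WT.

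The ATP synthase members atpH, atpF, atpA and atpI had differences from -0.04 to 0.04. The catalytic-head gene atpA measured 12.50, 12.70 and 12.70 in ara6-1 and 12.67, 12.65 and 12.51 in WT, so that its lowest value in each genotype came from ara6-1 replicate 1 and WT replicate 3. The same pair of arrays was lowest for all 10 members of the NDH complex, a route of cyclic electron flow around photosystem I. Its differences between genotypes ran from -0.07 to 0.07. As an example, ndhC stood at 12.63, 12.79 and 12.78 in ara6-1 and 12.73, 12.74 and 12.64 in WT, and ndhH at 11.02, 11.66 and 11.60 in ara6-1 and 11.54, 11.48 and 11.25 in WT.

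Among the classes, the median SD over the ara6-1 arrays was largest, at 0.52, in the plastid-encoded RNA polymerase. This enzyme transcribes most photosynthesis genes of the plastid. The gene rpoC2 measured 10.08, 11.13 and 11.26 in ara6-1 and 11.06, 11.04 and 10.43 in WT. For rpoB the values were 10.11, 11.01 and 11.09 in ara6-1 and 10.93, 10.89 and 10.45 in WT. For rpoC1 they were 9.94, 10.74 and 10.84 in ara6-1 and 10.73, 10.78 and 10.27 in WT. Each was lowest on ara6-1 replicate 1 and next lowest on WT replicate 3, and the other 4 arrays lay close together. The neighbouring gene rps2, for a protein of the small ribosomal subunit, did the same at 10.73, 11.56 and 11.66 in ara6-1 and 11.51, 11.51 and 10.98 in WT. In the RefSeq gene order rps2, rpoC2, rpoC1 and rpoB follow each other. The fourth polymerase gene, rpoA, lies elsewhere in the plastid genome and measured 11.15, 11.67 and 11.70 in ara6-1 and 11.62, 11.64 and 11.27 in WT. Their SDs over the ara6-1 arrays were 0.65 for rpoC2, 0.55 for rpoB, 0.51 for rps2 and 0.50 for rpoC1, while their genotype differences were between -0.08 and -0.02. With such a spread, the intervals of rpoC2 (-0.79 to 0.75), rpoB and rps2 reached past 1.5-fold in both directions, and that of rpoC1 (-0.69 to 0.52) in the lower direction only. The nuclear gene OSM34, described below, was also among the 6 members with the largest ara6-1 SDs. The sixth of the widest SDs was that of the ribosomal protein gene rpl36, 0.39, at 11.22, 11.91 and 11.86 in ara6-1 and 11.78, 11.79 and 11.47 in WT. The SD of rpoA was smaller, at 0.31.

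**Figure D3:**
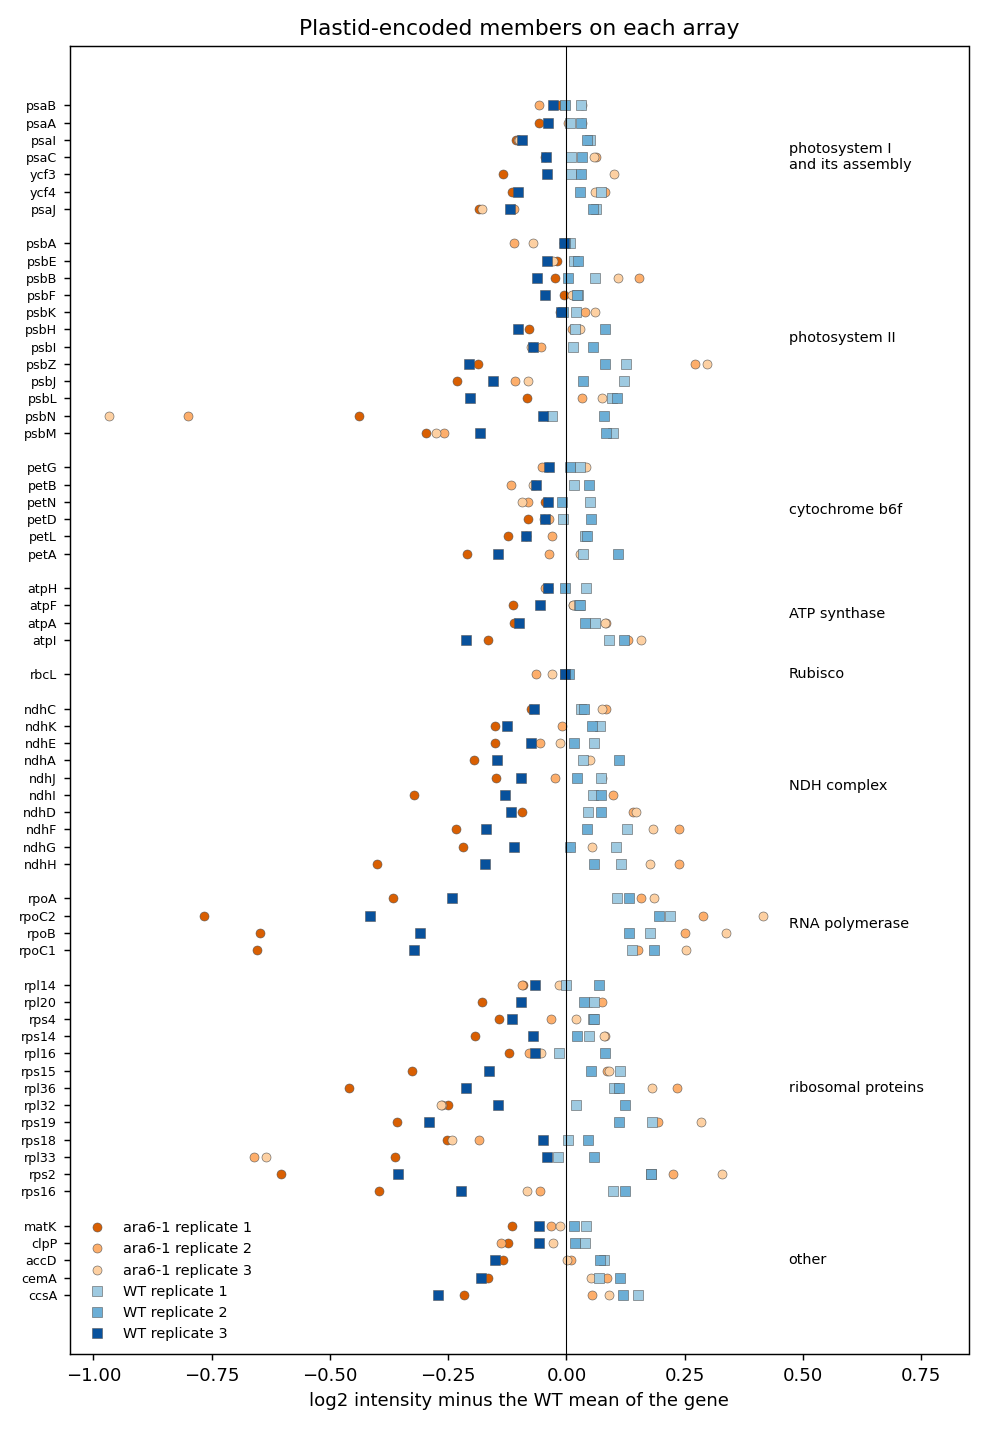
Each row is 1 of the 62 plastid members, grouped by function, and each point is 1 array, placed by its log2 intensity minus the gene's WT mean (circles ara6-1, squares WT). The darkest circle (ara6-1 replicate 1) and the darkest square (WT replicate 3) lie to the left in most rows, and farthest left for rpoC2. The genes psbN and rpl33 are lower on all 3 ara6-1 arrays.

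Over the plastid members, 48 of 62 (77.4%) were lowest on both ara6-1 replicate 1 and WT replicate 3, each within its own genotype, and 0 were highest on both. Of the 117 nuclear members 9 (7.69%) were lowest on both and 42 (35.9%) highest on both. Over all tested probe sets 14.6% were lowest and 14.5% highest on both. Relative to the WT mean, the median plastid member stood at -0.15 on ara6-1 replicate 1, 0.01 on ara6-1 replicate 2 and 0.04 on ara6-1 replicate 3. It stood at 0.05 on WT replicates 1 and 2 and at -0.10 on WT replicate 3. A nuclear member went the other way. OSM34, an osmotin-like defence protein, measured 10.67, 9.75 and 9.86 in ara6-1 and 9.95, 9.94 and 10.39 in WT, highest on the same pair of arrays.

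Of the 13 plastid ribosomal protein members 11 were within 1.5-fold. The brightest, rpl14, measured 12.83, 12.82 and 12.90 in ara6-1 and 12.91, 12.99 and 12.85 in WT, and rpl20 measured 12.70, 12.96 and 12.93 in ara6-1 and 12.94, 12.92 and 12.79 in WT. Both overlapped. The 5 other plastid members also overlapped between genotypes, with differences from -0.10 to -0.01. They were the splicing factor gene matK, the protease subunit clpP, the acetyl-CoA carboxylase subunit accD, cemA and the cytochrome c assembly gene ccsA.

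The most negative differences among plastid members belonged to short genes, while lower values of any size were found in 19 of 25 members under 350 bases and in 29 of the 37 longer ones. The gene psbN, which encodes a factor for photosystem II assembly, measured 10.87, 10.51 and 10.34 log2 intensity in ara6-1 and 11.28, 11.39 and 11.26 in WT. Its groups were separated, with a difference of -0.73 (SE 0.15, 95% interval -1.08 to -0.39), but its limma adjusted p was 0.4568. The large-subunit ribosomal protein gene rpl33 measured 11.03, 10.73 and 10.75 in ara6-1 and 11.37, 11.45 and 11.35 in WT, a difference of -0.55 (SE 0.11, adjusted p 0.467). For both, ara6-1 replicate 1 was the ara6-1 array nearest to WT. In the RefSeq gene order the neighbours had smaller differences. Next to psbN, psbH differed by -0.01 and psbT, outside the members, by 0.08. Next to rpl33, rps18 measured 11.23, 11.29 and 11.24 in ara6-1 and 11.48, 11.52 and 11.43 in WT, a difference of -0.23, and psaJ differed by -0.16. Smaller separated differences were found for psbM, a small photosystem II subunit, at 10.47, 10.50 and 10.49 in ara6-1 and 10.86, 10.85 and 10.58 in WT (-0.28), and for rpl32 at 11.30, 11.29 and 11.29 in ara6-1 and 11.57, 11.68 and 11.40 in WT (-0.26). These 5 genes were all under 350 bases in RefSeq. Of the 25 short plastid members 8 were separated with ara6-1 lower, and of the 37 longer ones 2. None of the longer ones had a difference below -0.2. The length of 350 bases was chosen after the values were seen, so this is a description.

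The mitochondrial members all had intervals within 1.5-fold. Besides rpl2, at 12.61, 12.56 and 12.56 in ara6-1 and 12.64, 12.70 and 12.69 in WT, they held 8 subunits of NADH dehydrogenase, 3 of later respiratory complexes and 2 cytochrome c biogenesis genes, ccb452 and ccb203. The brightest of the respiratory genes was cox1, a core subunit of cytochrome oxidase, at 12.70, 12.68 and 12.70 in ara6-1 and 12.63, 12.65 and 12.74 in WT. Among the NADH dehydrogenase genes, nad4L measured 12.19, 12.28 and 12.29 in ara6-1 and 12.27, 12.28 and 12.24 in WT, nad1 12.10, 12.08 and 12.22 in ara6-1 and 12.14, 12.17 and 12.18 in WT, and nad2 11.58, 11.61 and 11.75 in ara6-1 and 11.63, 11.61 and 11.71 in WT. All 3 overlapped between genotypes. Of the 14 mitochondrial members 4 (28.6%) were separated with ara6-1 lower, where 7.85% of all probe sets were. They were rpl2, ccb203, nad6 at 10.13, 10.04 and 10.06 in ara6-1 and 10.29, 10.30 and 10.23 in WT, and the oxidase subunit gene cox2 at 10.56, 10.65 and 10.65 in ara6-1 and 10.77, 10.80 and 10.68 in WT. The gene atp1 was separated with ara6-1 higher. Only 3 of the 14 were lowest on both ara6-1 replicate 1 and WT replicate 3.

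The 7 chromosome 2 loci within the inserted mitochondrial DNA were AT2G07707, AT2G07722, AT2G07732, AT2G07751, AT2G07773, AT2G07708 and AT2G07689. All had intervals within 1.5-fold, with differences from -0.20 to 0.06. The brightest, AT2G07707, measured 11.48, 11.68 and 11.63 in ara6-1 and 11.56, 11.55 and 11.52 in WT. The values of its probe set were identical to those of another row of the table. The next, AT2G07722, stood at 11.08, 11.47 and 11.47 in ara6-1 and 11.44, 11.54 and 11.29 in WT, and AT2G07732 at 11.07, 11.07 and 11.28 in ara6-1 and 11.18, 11.38 and 11.11 in WT. The nuclear locus and the mitochondrial gene it copies can share sequence, and whether the signal came from one or the other was not tested. AT2G07741, at rank 40, lies just beyond the stretch defined above and is counted as nuclear. It measured 12.35, 12.47 and 12.52 in ara6-1 and 12.33, 12.30 and 12.31 in WT.

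The nuclear members began at rank 29 with AT5G42530, at 12.33, 12.51 and 12.65 in ara6-1 and 12.38, 12.45 and 12.59 in WT. It was followed by AT3G47650 at 12.46, 12.37 and 12.36 in ara6-1 and 12.38, 12.43 and 12.60 in WT. Both overlapped, and both carried only a locus number in the annotation used here. Over the 117 nuclear members 110 had intervals within 1.5-fold, and the median difference was 0.01, with 61 higher and 56 lower. This split turned with single arrays: 52 were higher and 65 lower without ara6-1 replicate 1 (median -0.02), and 53 higher and 64 lower without WT replicate 1 (median -0.01). Their groups were separated for 18 with ara6-1 higher (15.4%, where 7.81% of all probe sets were) and for 14 with ara6-1 lower (12%, where 7.85% were).

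Among the nuclear members, 10 fell into classes of photosynthesis, photorespiration or thylakoid function. The median difference was 0.07, with 9 of 10 higher, where 14148 of all 28501 probe sets were higher, and 0 passed the test. These counts depend on the class patterns. The patterns left out NdhL, named for the NDH complex (difference 0.01), and the photosystem II factor PSB27 (-0.14). Under either further normalization 8 of 10 were higher. Without ara6-1 replicate 1, 7 were higher with a median of 0.07, and without WT replicate 3, 8 were higher with a median of 0.05. Another 12 named genes of the same classes lay outside the members, with a median of 0.15 and 0 past the test. The photosystem subunit genes PSBW, PSAE-1 and PSAN were among the 10. PSBW measured 11.80, 11.81 and 11.78 in ara6-1 and 11.77, 11.74 and 11.68 in WT, with groups just separated (11.781 against 11.766 at the nearest values). PSAE-1 measured 11.23, 11.26 and 11.22 in ara6-1 and 11.17, 11.26 and 11.05 in WT, and PSAN 10.42, 10.11 and 10.09 in ara6-1 and 10.25, 10.19 and 10.15 in WT. The light-harvesting gene LHB1B2 measured 11.28, 11.46 and 11.48 in ara6-1 and 11.34, 11.37 and 10.94 in WT, with WT replicate 3 apart from the others. RCA, the Rubisco activase, stood at 11.69, 11.63 and 11.67 in ara6-1 and 11.58, 11.64 and 11.78 in WT, a difference of 0.00 (95% interval -0.23 to 0.23). SBPASE, a phosphatase of the Calvin cycle, stood at 11.43, 11.41 and 11.37 in ara6-1 and 11.27, 11.28 and 11.41 in WT. HPR, the peroxisomal hydroxypyruvate reductase of photorespiration, differed by -0.04.

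At the thylakoid, TROL, a membrane anchor for ferredoxin-NADP reductase, measured 11.67, 11.57 and 11.67 in ara6-1 and 11.51, 11.60 and 11.63 in WT. TAPX, the thylakoid ascorbate peroxidase, had separated groups at 10.48, 10.45 and 10.48 in ara6-1 and 10.28, 10.37 and 10.36 in WT (difference 0.14, adjusted p 0.66). AT4G01150 did as well, at 10.48, 10.41 and 10.49 in ara6-1 and 10.32, 10.37 and 10.38 in WT. Outside these classes, PSB27, a photosystem II repair factor, was separated in the other direction at 9.96, 9.93 and 9.96 in ara6-1 and 10.08, 10.17 and 10.03 in WT.

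The brightest nuclear member with a symbol was PYK10, the main beta-glucosidase of endoplasmic reticulum bodies in roots and seedlings. It measured 12.29, 12.33 and 12.36 in ara6-1 and 12.21, 12.25 and 12.21 in WT, so that the groups were separated with a difference of 0.11 (adjusted p 0.727). NAI2, a protein needed to form these bodies, measured 10.60, 10.37 and 10.50 in ara6-1 and 10.15, 10.16 and 10.47 in WT and overlapped. PRXR1, a peroxidase, had separated groups at 12.061, 12.004 and 12.001 in ara6-1 and 11.82, 11.80 and 11.97 in WT. The glycolytic gene GAPC2 stood at 10.36, 10.30 and 10.35 in ara6-1 and 10.16, 10.28 and 10.23 in WT, and TPI, the triose phosphate isomerase, at 10.25, 10.16 and 10.11 in ara6-1 and 10.12, 10.07 and 10.11 in WT. ECS1 measured 11.63, 11.87 and 11.96 in ara6-1 and 11.75, 11.72 and 11.78 in WT, and CCL 11.10, 11.25 and 11.04 in ara6-1 and 11.14, 11.26 and 11.004 in WT, and both overlapped. SWEET11, a sucrose exporter of phloem loading, measured 10.55, 10.43 and 10.41 in ara6-1 and 10.23, 10.38 and 10.53 in WT and overlapped. RAB6A, a Golgi-associated RAB GTPase, was separated lower at 10.13, 10.12 and 10.06 in ara6-1 and 10.27, 10.30 and 10.19 in WT (difference -0.15, adjusted p 0.634).

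COB (COBRA), which orients cell expansion, measured 10.49, 10.63 and 10.59 in ara6-1 and 10.35, 10.37 and 10.46 in WT, with separated groups (difference 0.18). GH9C2, of the cellulase family, measured 10.27, 10.70 and 10.65 in ara6-1 and 10.26, 10.30 and 9.92 in WT. Its groups overlapped at 1 array, and its difference of 0.38 had a 95% interval from 0.01 to 0.75. Another family member, GH9B13, stood at 11.15, 10.77 and 10.89 in ara6-1 and 11.13, 11.14 and 11.20 in WT. ILR3, a transcription factor of iron homeostasis, was separated higher at 10.48, 10.56 and 10.49 in ara6-1 and 10.32, 10.38 and 10.45 in WT.

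Over all 200 members, the groups of 48 (24%) did not overlap, 19 with ara6-1 higher and 29 lower, where 15.7% of all tested probe sets did not overlap. With 3 arrays against 3 an exact two-sided permutation test cannot go below p = 0.10. The differences past 1.5-fold numbered 3 of 200, where 1.44% of all probe sets were past it. All 3 were lower in ara6-1: AT7SL-1, psbN and AT3G63052.

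AT7SL-1, whose RefSeq synonym is 7SL RNA1, carries the name of the RNA of the signal recognition particle, which guides nascent secretory proteins to the endoplasmic reticulum. It measured 9.48, 9.22 and 9.03 in ara6-1 and 10.18, 10.23 and 9.91 in WT. The 3 ara6-1 values lay below all WT values, with a difference of -0.86 (SE 0.15, 95% interval -1.21 to -0.52) and an adjusted p of 0.4471. Its rank was 439 in ara6-1 and 185 in WT. With a prior variance that follows intensity in limma, its adjusted p was 0.04703, and over 15 settings its adjusted p ran from 0.04703 to 0.8039 and its difference from -1.08 to -0.76. Whether probes also read other 7SL copies was not tested.

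AT3G63052 measured 10.27, 9.93 and 9.72 in ara6-1 and 10.77, 10.67 and 10.35 in WT (difference -0.62, SE 0.17, adjusted p 0.517). The groups were closest between ara6-1 replicate 1 and WT replicate 3. DI19, named for induction by drought, stood at 10.43, 10.06 and 10.11 in ara6-1 and 10.60, 10.64 and 10.57 in WT, a difference of -0.41 (adjusted p 0.517). AT5G44020 differed by -0.30 and AT5G43460 by -0.22, both with separated groups. In the other direction, AT4G21650 measured 10.42, 11.10 and 10.95 in ara6-1 and 10.34, 10.31 and 10.20 in WT (difference 0.54, SE 0.18, adjusted p 0.532). Its 3 ara6-1 values lay above the WT values, and replicate 1 lay close to them. The remaining members with the largest separated positive differences were AT2G36895 (0.22), AT5G42050 (0.15), AT3G62580 (0.13), AT2G07741 (0.13) and AT4G19110 (0.12), besides COB, PRXR1, TAPX and ILR3 above.

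**Figure D4:**
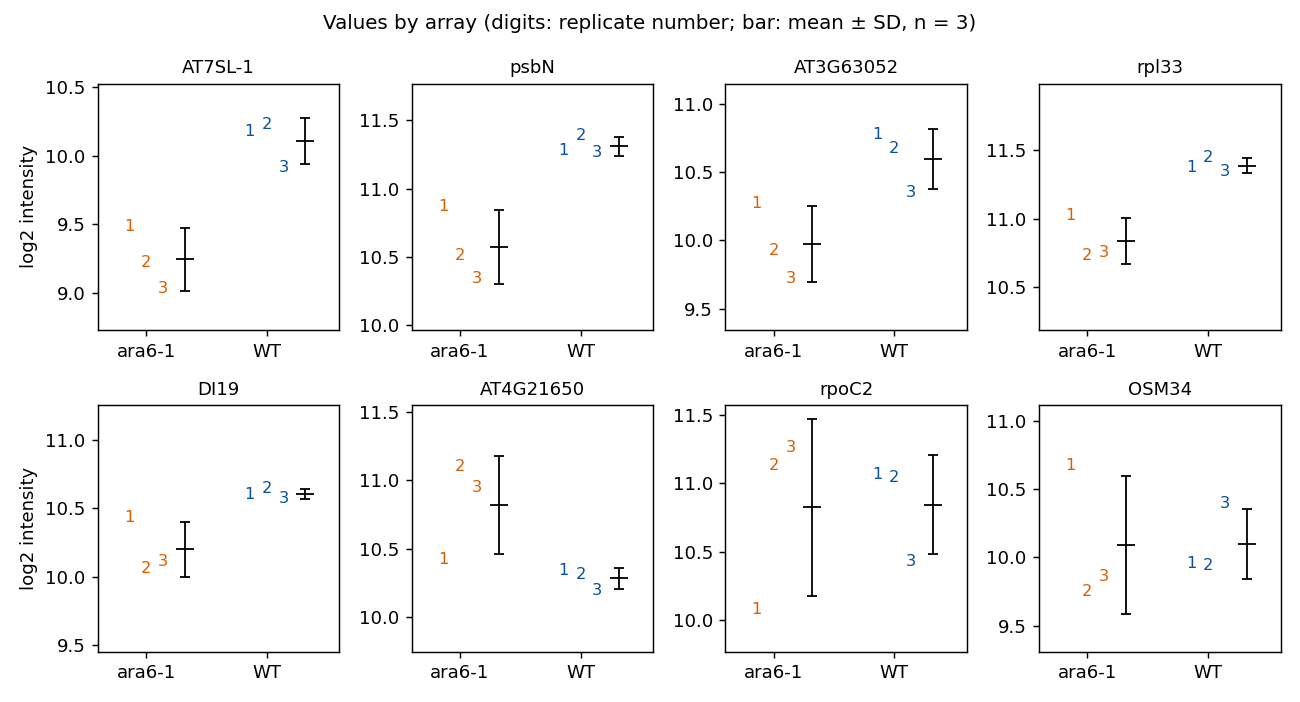
Log2 intensity on each array for 8 members, with ara6-1 left of WT, digits giving the replicate number and the black bar the mean ± SD over 3 arrays; each panel spans the same range of 1.8 log2 units. The upper row and DI19 lie lower on all ara6-1 arrays and AT4G21650 higher, while rpoC2 is low and OSM34 high on ara6-1 replicate 1 and WT replicate 3.

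The 13 members whose interval reached past 1.5-fold fell into 2 kinds. For AT7SL-1, psbN, AT3G63052, rpl33, DI19, AT4G27130, GH9C2 and AT4G21650 the difference itself was between 0.35 and 0.86 in size. For rpoC1, rpoC2, rpoB, rps2 and OSM34 the difference was at most 0.08 in size and the spread between replicates was wide.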

How the data were processed

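Total RNA was hybridized to Affymetrix whole-transcript arrays, 1 per sample. The authors deposited 1 table of linear intensity values; the submitters' processing notes name Affymetrix Expression Console 1.3 as the software. How probes were summarized, and on which genome build and annotation, is not given in the sources used here. Near-equal array medians were taken to mean normalized values, and nothing was normalized again.

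Of 38408 rows, 28501 were written to 1 decimal or fewer and tested; the other 9907 are not identified by any source used here. Genes were named by the platform annotation of each probe set, with symbols brought up to date by the TAIR10.1 RefSeq list. Of the members 184 matched by gene ID, 2 by locus and 14, all mitochondrial by name, not at all. The genotypes were tested on log2 intensities by limma 3.58.1 (R 4.3.3; lmFit and eBayes, without a block). The test was two-sided, p-values were adjusted by Benjamini-Hochberg across the 28501 tested probe sets, and 0.05 was the limit for a call. SEs and 95% intervals are moderated. On data simulated for this comparison over 28501 probe sets, 200 of them changed, the fit recovered 40% of 1.5-fold and 80% of 2-fold changes. With nothing changed, 94.5% of intervals held the true difference. The changed probe sets were above the median in brightness, and changes of 4-fold and 8-fold were planted too. The simulated noise was independent, without deviations shared by many genes on an array. These shares need not hold for the measured arrays, where ARA6, at a difference of -1.24, had a limma adjusted p of 0.1398.

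Genes were named by rule: the 20 brightest, 3 on each side of the edge, the 10 largest separated differences each way, the 6 largest ara6-1 SDs, the 6 narrowest intervals, the 3 brightest of each class and ARA6. Others (GAPC2, TPI, PYK10, NAI2, SWEET11, RAB6A, GH9C2, AT4G27130, PSB27, RCA, SBPASE, LHB1B2, HPR, COR15A, MPPBETA and further organelle genes) were added after their values were seen. Members, lists and classes were chosen with earlier results of these data known, and the organelle classes after seeing the list. The number of arrays limits the precision. Sequences were not used here. RefSeq positions served to define the chromosome 2 stretch, gene lengths to split the plastid members, and gene order to name neighbours.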

Additional observations from a re-analysis of the deposited data

How the results depend on the processing

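The count of members past the threshold in limma was 0 under every alternative run except one: letting the prior variance follow intensity made it 1, AT7SL-1 (adjusted p 0.04703 at a difference of -0.86). Over all probe sets the calls numbered 3, against 16 with that prior, 0 in the unmoderated test and 1 without both ara6-1 replicate 1 and WT replicate 3, an alternative chosen after seeing the data. Leaving out 1 array at a time gave 2 to 4 calls over all probe sets, 0 among members, 54 to 100 members with separated groups, 174 to 179 with an interval within 1.5-fold and medians from -0.04 to -0.00. Members with separated groups numbered 100 without ara6-1 replicate 1, 92 without WT replicate 3 and 141 without both, where all probe sets gave 31.8%, 28.5% and 46.4%; fewer arrays overlap less. With 100 members 18 were separated and 97 lay within 1.5-fold, and with 400 members 104 and 372, since the list itself changes in length. The sign of the differences of rpoB, rpoC1, rpoC2, rps2 and OSM34 changed as single arrays were left out, over ranges from -0.20 to 0.29, -0.25 to 0.20, -0.24 to 0.35, -0.19 to 0.28 and -0.29 to 0.17. The differences of AT7SL-1, psbN, AT3G63052, rpl33, DI19, AT4G21650 and GH9C2 kept their sign in all settings run, and apart from AT7SL-1 none of them passed in any. The median over all 200 members stayed below 0 in all settings run, but without ara6-1 replicate 1 the medians were 0.02 for plastid, -0.02 for nuclear and 0.00 for mitochondrial members, against -0.03, 0.01 and -0.02 with all arrays. Deviations of samples with the same replicate number correlated across all probe sets at -0.096, 0.087 and -0.085, and across the members at -0.597, 0.545 and -0.527, so not every pair was above 0.1 and the numbers were not taken as pairs. With the replicate block, 2 probe sets and 0 members passed, 184 members lay within 1.5-fold and the median stayed at -0.01. With 3 arrays per genotype, changes of 1.5-fold were recovered for 40% of the changed probe sets in simulated data, whose independent noise is simpler than the arrays.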
